A study of Mus musculus with 13 samples.

Results

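The genes described here encode the proteins of the cytosolic ribosome in mouse aorta. They were chosen by name from the deposited expression table: every symbol that begins with Rps or Rpl and a number, with at most one letter and digits after it, and Rpsa, Rplp0, Rplp1 and Rplp2, leaving out symbols marked as pseudogenes. The rule gave 45 genes of 21225 measured features, 20 of the small subunit and 25 of the large subunit. RefSeq lists 89 symbols that match the same rule, and those without a row here were not analysed here. One member, Rps4y2, is now named Rps4l in that table, where it is a transcribed pseudogene.

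The study hybridised aortic RNA of male C57BL/6 mice to 13 arrays. There were 3 arrays of aged knockout aorta, 4 of aged MR-intact aorta, 3 of young knockout aorta and 3 of young MR-intact aorta. The knockout (SMC-MR-KO) has lost Nr3c2, the gene of the mineralocorticoid receptor (MR) that binds aldosterone, in its smooth muscle cells, so the other cells of the vessel keep it. The labels do not name the promoter that drives the deletion. Aged mice were 12 months old and young mice 3 to 4 months old, and the study asked how RNA of the vessel changes with age. Whether each array stands for its own animal is not stated, and the p-values therefore describe only the spread among these arrays. All aged samples carry the title letter A and all young samples the letter B, and whatever the letter marks cannot be told apart from age.

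A ribosome is built from ribosomal RNA and one copy of most of its proteins, so cells make the proteins of both subunits in near equal amounts. Much of this control acts on translation: mRNAs of ribosomal proteins begin with a run of pyrimidines, the terminal oligopyrimidine or TOP tract, through which mTORC1 signalling sets how well they are translated. Transcript levels of these genes are usually high and steady in a tissue, and some of the genes carry small nucleolar RNAs (snoRNAs) in their introns. The snoRNAs guide chemical modification of ribosomal RNA.

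RefSeq promoter sequences (assembly GRCm38.p6) were available for 34 of the 45 genes, in 44 windows from 250 bases before to 50 bases after an annotated start. Windows of one gene can overlap. The TOP-like run was searched as a C followed by 4 or more C or T, on the sense strand, beginning within 3 bases of the start, and 38.6% of the ribosomal protein windows held one, against 11.5% of all 32851 windows. The ETS-type word CCGGAAG was in 38.6% of the ribosomal protein windows and 8.86% of all windows, and the YY1-type word AAGATGGC in 18.2% and 2.75%. The SP-type word GGGCGG was in 61.4% against 35.7%, the E-box CACGTG in 13.6% against 7.15%, and the TATA-type word TATAAA in 6.82% against 13.6%. These 5 words were searched on both strands, and different words may overlap. The 6 stretches below show the starts of genes that the results turn on, each with 60 bases before and 20 after the annotated start, and capitals mark the words found in the stretch. Rpl23 is the only member called in any comparison, Rpl27a and Rps9 are among the members with the smallest p-values for the difference of aging between genotypes, Rps6 and Rplp2 show typical TOP-like runs, and Rpl3l is a muscle paralog with none of these words.
Rpl23, chr11:97782420-97782499, minus strand: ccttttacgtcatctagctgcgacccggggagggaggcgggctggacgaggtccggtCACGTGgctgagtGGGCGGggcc
Rpl27a, chr7:109519135-109519214, plus strand: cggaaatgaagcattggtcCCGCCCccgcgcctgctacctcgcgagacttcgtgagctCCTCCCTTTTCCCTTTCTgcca
Rps9, chr7:3703981-3704060, plus strand: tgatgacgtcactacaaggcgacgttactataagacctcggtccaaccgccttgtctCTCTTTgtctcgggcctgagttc
Rps6, chr4:86857348-86857427, minus strand: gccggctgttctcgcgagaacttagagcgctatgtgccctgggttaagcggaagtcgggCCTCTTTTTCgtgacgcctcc
Rplp2, chr7:141447591-141447670, plus strand: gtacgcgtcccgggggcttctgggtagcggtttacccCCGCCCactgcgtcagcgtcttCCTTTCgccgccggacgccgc
Rpl3l, chr17:24727766-24727845, plus strand: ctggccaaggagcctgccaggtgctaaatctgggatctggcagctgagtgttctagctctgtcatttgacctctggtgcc
In Rpl23 the capitals are an E-box and an SP-type word. In Rpl27a and Rplp2 they are an SP-type word on the opposite strand and the TOP-like run, and in Rps9 and Rps6 the TOP-like run. A match describes these letters only and is not evidence of binding.

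Levels are on the log2 scale as deposited, and differences are log2 differences between group means. Tests were made with limma over all 21225 features, with calls made at 0.05 after Benjamini-Hochberg adjustment. Nr3c2 itself read 6.14, 6.22 and 6.58 on the aged knockout arrays, against 7.12, 6.86, 6.80 and 7.24 on the aged MR-intact arrays, with no overlap (exact permutation p = 0.0286, two-sided, the smallest that 3 against 4 arrays allow). It read 6.26, 6.09 and 6.42 on the young knockout arrays and 6.68, 6.62 and 6.69 on the young MR-intact arrays, again with no overlap (exact permutation p = 0.1, the smallest possible). Where its probes lie relative to the deleted part is not stated. Smooth muscle markers (7 genes, Acta2 and Myh11 among them) averaged 10.26 to 11.08 on aged knockout arrays, 10.98 to 11.37 on aged MR-intact arrays, and 10.99 to 11.11 over all young arrays, and in no group did one of them lie under the lower quartile on every array.

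In knockout aorta, ribosomal protein genes read somewhat higher in aged than in young mice. The difference was above 0 for 37 of the 45 genes, against 51.2% of all features, with a median of 0.15 against 0.004 over all features. Of these genes Rpl23 alone passed the test, and 0.735% of all features did. At an unadjusted p under 0.05, 11 members were higher and 0 lower, while 15.8% of all features had such a p, 9.07% higher and 6.76% lower. The arrays of both ages did not overlap for 7 members, all higher in aged knockout (15.6% of the members, against 8.0% of all features higher and 8.38% lower without overlap).

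**Figure D1:**
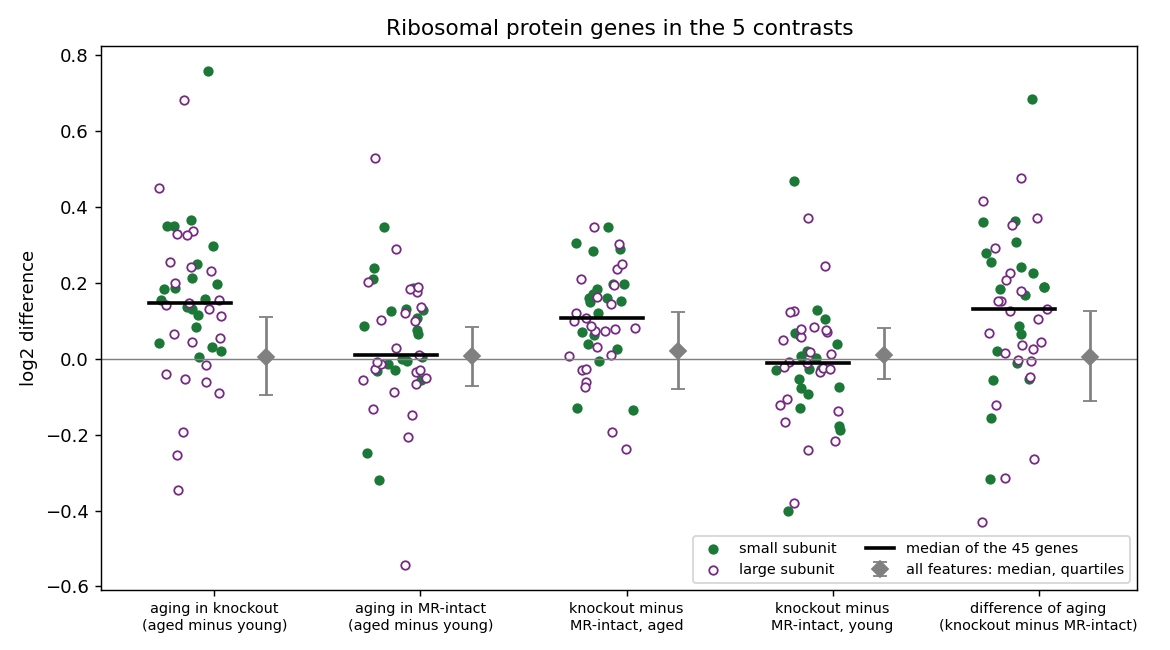
Log2 difference of each of the 45 ribosomal protein genes (y axis) in the 5 contrasts (x axis), small subunit filled and large subunit open, with the genes' median as a black line and the median and quartiles of all 21225 features in grey. The genes' median is 0.15 for aging in knockout aorta and 0.11 for knockout minus MR-intact in aged aorta, and near 0 for aging in MR-intact aorta and for genotype in young aorta.

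Rpl23 encodes a large subunit protein that can also bind the p53 regulator Mdm2. It read 6.16, 6.34 and 6.03 on the aged knockout arrays and 5.28, 5.61 and 5.60 on the young knockout arrays. Every aged array was above every young one, and Rpl23 rose by 0.68 ± 0.14 (log2 difference ± SE, limma adjusted p = 0.0453). In MR-intact aorta it read 5.91, 6.05, 6.10 and 6.07 on the aged arrays and 5.19, 5.66 and 5.66 on the young arrays, also with no overlap, a difference of 0.53 ± 0.13 that did not pass (limma adjusted p = 0.167). The difference of aging between the genotypes was 0.15 ± 0.18 for Rpl23 (limma adjusted p = 0.853), with a 95% interval of -0.25 to 0.55. The call in knockout aorta was lost without aged knockout replicate 1 or 2, or without any one of the young knockout arrays (limma adjusted p from 0.0515 to 0.182). It was also lost with array weights (adjusted p = 0.101) and with a fit on the 2 groups alone (adjusted p = 0.303). Without aged knockout replicates 1 and 2 together, 1 aged knockout array was left, which is assumed to vary like the other groups, and the difference was 0.54.

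Several small subunit genes had small p-values for aging in knockout aorta. Rps15, whose protein sits near the decoding centre, read 11.61, 11.44 and 11.29 on the aged knockout arrays, against 11.02, 11.05 and 11.22 on the young knockout arrays. Its arrays did not overlap, and the difference of 0.35 ± 0.09 did not pass over all features (limma adjusted p = 0.0956). Without aged knockout replicate 3, Rps15 and Rpl26 passed beside Rpl23 (limma adjusted p = 0.0249 for Rps15 and 0.0352 for Rpl26). Rps9 (0.35 ± 0.12, limma adjusted p = 0.175) and Rps19 (0.36 ± 0.13, limma adjusted p = 0.184) also separated the ages without passing. Rps19, which is mutated in Diamond-Blackfan anaemia in people, read 9.54, 9.50 and 9.31 on the aged knockout arrays and 8.95, 9.11 and 9.20 on the young knockout arrays. Among the large subunit genes Rpl4 (0.25 ± 0.09, limma adjusted p = 0.186) and Rplp0 (0.15 ± 0.06, limma adjusted p = 0.281) separated the ages as well.

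**Figure D2:**
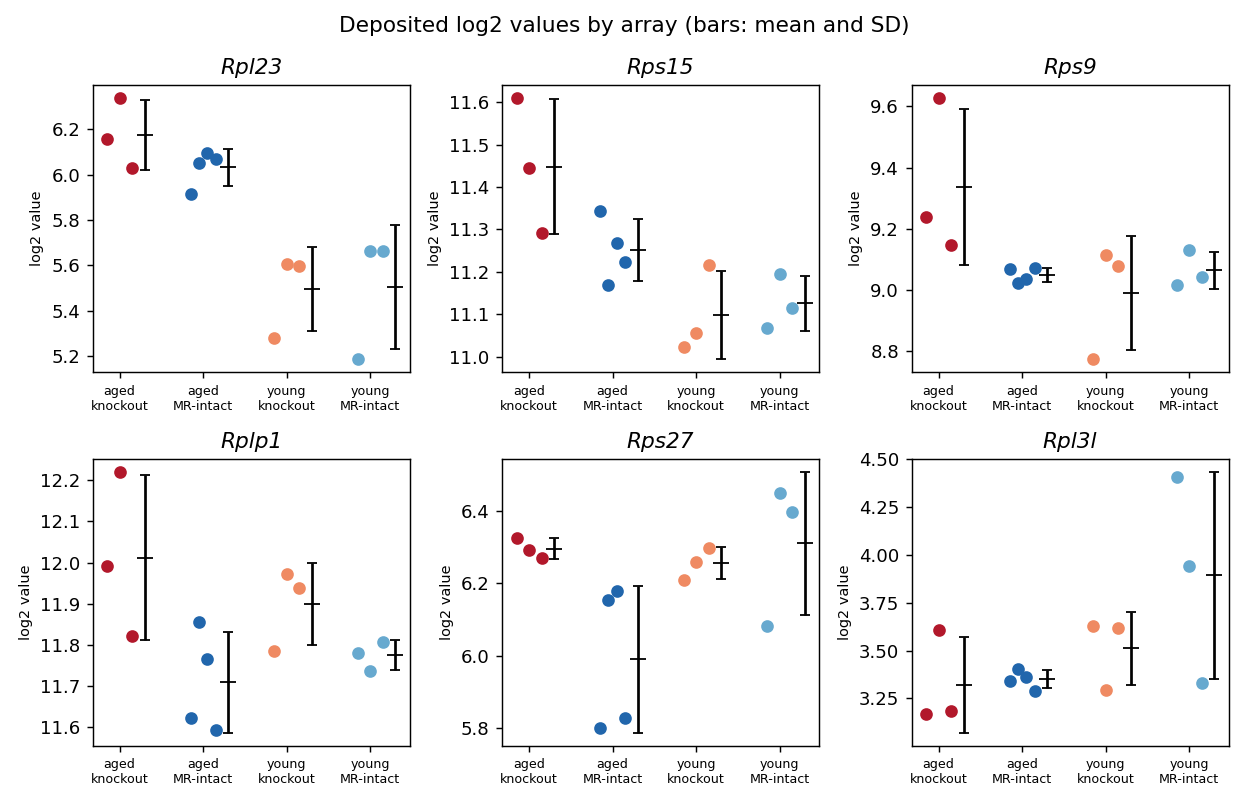
Deposited log2 values (y axis) of 6 ribosomal protein genes on every array of the 4 groups (x axis), with the group mean and SD beside the points. Rpl23 is higher on all aged than on all young arrays in both genotypes, Rps9 and Rps27 are higher on all 3 aged knockout arrays than on all 4 aged MR-intact arrays, and Rpl3l is highest on young MR-intact replicates 1 and 2.

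All 20 small subunit genes had a difference above 0 for aging in knockout aorta (median 0.17), against 17 of 25 large subunit genes (median 0.13), and the difference between the subunits was not tested. The 22 members with the higher mean signal (log2 8.43 to 12.5) had a median of 0.19, and the 23 with the lower signal (2.41 to 7.94) a median of 0.12. The other 2829 features at or above the signal of the first set had a median of -0.016.

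In MR-intact aorta the members were spread about evenly on both sides of 0 with age. The difference was above 0 for 24 of 45 genes, against 52.3% of all features, and the median was 0.01, against 0.006 over all features. No member passed (0.236% of all features did), and at an unadjusted p under 0.05 there were 3 members higher and 3 lower, where 8.63% of all features had such a p, 4.49% higher and 4.14% lower. The arrays did not overlap for 6 members higher in aged aorta (6.05% of all features) and for 1 lower (4.80%), Rpl18. The 5 smallest p-values were those of Rpl23, Rps27, Rpl3l, Rps10 and Rpl4. Rps27, a small subunit zinc finger protein, read 5.80, 6.15, 6.18 and 5.83 on the aged MR-intact arrays, against 6.08, 6.45 and 6.40 on the young MR-intact arrays, a difference of -0.32 ± 0.11 with overlap (limma adjusted p = 0.399). Rps10 (0.21 ± 0.08, adjusted p = 0.449) and Rpl4 (0.19 ± 0.08, adjusted p = 0.559) were higher on every aged than on every young array and did not pass in limma.

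Aged knockout aorta was then set against aged MR-intact aorta. These genes again read higher in the knockout, 36 of 45 above 0 against 56.4% of all features, with a median of 0.11 against 0.021. No member passed the test (0.0565% of all features did). At an unadjusted p under 0.05, 7 members were higher and 0 lower, where 17.6% of all features had such a p, 8.58% higher and 9.06% lower. A total of 2 members, Rps27 and Rps9, were higher without overlap, or 4.44% of them, where 5.25% of all features were higher and 5.11% lower. The share of separated genes was thus no higher than that of all features. The contrast shares its aged knockout arrays with the aging contrast above, so both rest on the same 3 arrays.

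The 5 smallest p-values in aged aorta were those of Rplp1, Rps19, Rps27, Rpl26 and Rps9. Rplp1, one of the acidic proteins of the stalk that recruits translation factors, read 11.99, 12.22 and 11.82 on the aged knockout arrays, against 11.62, 11.85, 11.77 and 11.59 on the aged MR-intact arrays. One knockout array lay inside the MR-intact range, and the difference was 0.30 ± 0.10 (limma adjusted p = 0.137). Rpl26, whose protein also binds p53 mRNA, read 10.67, 10.77 and 10.20 on the aged knockout arrays and 10.33, 10.22, 10.09 and 10.16 on the aged MR-intact arrays, a difference of 0.35 ± 0.13 (limma adjusted p = 0.193) with replicates 1 and 2 above and replicate 3 inside the MR-intact range. Rps9, a small subunit protein, read 9.24, 9.63 and 9.15 on the aged knockout arrays and 9.07, 9.02, 9.04 and 9.07 on the aged MR-intact arrays, a difference of 0.29 ± 0.11 (limma adjusted p = 0.198). Rps27 differed by 0.31 ± 0.11 (limma adjusted p = 0.177) and Rps19 by 0.35 ± 0.12 (limma adjusted p = 0.158). Without aged knockout replicate 3, Rpl26 (limma adjusted p = 0.0204), Rplp1 (0.0344) and Rpl13a (0.0451) passed. Without aged knockout replicates 1 and 2 the members' median was 0.02. The members were highest on these 2 arrays, so a lower median without them follows from that and is not a check.

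In young aorta no difference between the genotypes was found in these genes. The median difference was -0.01 against 0.010 over all features, 21 of 45 genes were above 0 against 54.6% of all features, and no member passed in limma, as was the case for 0% of all features. At an unadjusted p under 0.05 there were 0 members, where 2.59% of all features had such a p, including the 1.76% that were higher. Rplp0 was higher without overlap (0.08 ± 0.06; 5.43% of all features were higher without overlap) and Rps27l lower without overlap (-0.13 ± 0.10; 4.06% were lower). Among the members with the smallest p-values were Rpl3l (-0.38 ± 0.21), Rpl27a (-0.24 ± 0.16) and Rpl30 (0.13 ± 0.08), each with a limma adjusted p of 1.

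The difference of aging between genotypes, taken as the change in knockout minus the change in MR-intact aorta, had a median of 0.13 over the members against 0.005 over all features, and was above 0 for 33 of 45 genes against 51.2% of all features. It lay mostly in the 22 members with the higher mean signal (median 0.17, 20 above 0). The 23 with the lower signal had a median of 0.02, with 13 above 0. For aging in MR-intact aorta the medians of these sets were -0.0006 and 0.10 in that order. The difference between the sets was not tested. No gene of the array passed this test in limma (0% called), and at an unadjusted p under 0.05 there were 3 members, Rps9 (0.36 ± 0.16), Rps27 (0.36 ± 0.16) and Rpl27a (0.48 ± 0.22), where 8.12% of all features had such a p, 3.59% higher and 4.53% lower (limma adjusted p = 0.609 for each). Rpl26 (0.37 ± 0.19) and Rpl8 (0.21 ± 0.11) followed. Without aged knockout replicates 1 and 2, where the members were highest, the median was 0.03, which is again not a check.

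The members were uneven over the arrays. For each gene the deviation from its own mean over the 13 arrays was taken, and the median over the 45 genes was 0.15, 0.14 and 0.02 on aged knockout replicates 1, 2 and 3. It was 0.02, 0.05, 0.02 and -0.09 on the aged MR-intact arrays, -0.18, -0.03 and 0.002 on the young knockout arrays, and -0.06, -0.06 and -0.05 on the young MR-intact arrays. Aged knockout replicates 1 and 2 and young knockout replicate 1 thus stand apart, while young MR-intact arrays lie close together. Of the 45 genes, 14 had their highest value on aged knockout replicate 1 and 13 on replicate 2, and 17 had their lowest value on young knockout replicate 1. Without young knockout replicate 1 the median for aging in knockout aorta was 0.08.

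**Figure D3:**
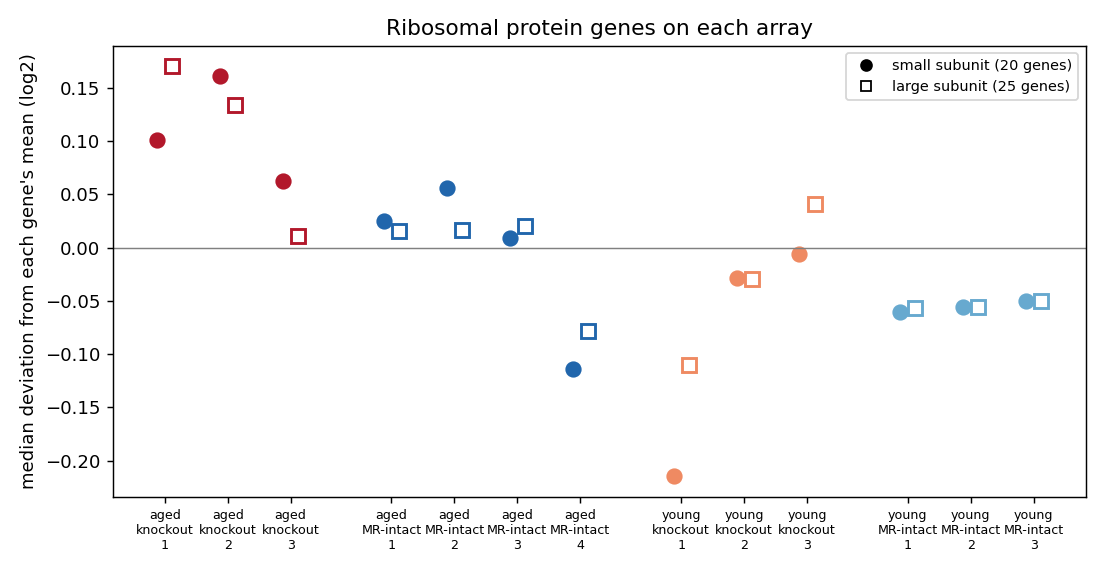
Median deviation of the small subunit genes (filled circles) and large subunit genes (open squares) from each gene's mean over all arrays, in log2 units (y axis), on each of the 13 arrays (x axis). Aged knockout replicates 1 and 2 are highest and young knockout replicate 1 is lowest in both subunits.

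Markers of other cell types also differed between arrays. B lymphocyte and plasma cell markers (11 genes) averaged 8.97, 7.10 and 7.04 on the aged knockout arrays, 5.34 to 5.74 on the aged MR-intact arrays, 5.20, 5.14 and 6.63 on the young knockout arrays and 5.12 to 5.67 on the young MR-intact arrays. All 11 were higher in aged knockout than in aged MR-intact aorta, by 1.46 to 3.20, and their log2 values summed to 77.4 to 98.7 on aged knockout arrays and 58.7 to 63.1 on aged MR-intact arrays. In the aged MR-intact group 1 of these markers lay under the lower quartile of its array on every array. T lymphocyte markers (11 genes) averaged 7.11, 6.54 and 5.80 on the aged knockout arrays and at most 5.76 on those of aged MR-intact aorta, with all 11 higher in the knockout by 0.20 to 2.21. Smooth muscle markers were lower in aged knockout than in aged MR-intact aorta by 0.27 to 0.69 and fibroblast markers (6 genes) by 0.07 to 0.59. Liver markers (6 genes) averaged 6.95 on aged knockout replicate 2 and at most 5.48 elsewhere. Over aged knockout replicates 1, 2 and 3 the members deviated by 0.15, 0.14 and 0.02. T lymphocyte markers fell in the same order, and B lymphocyte markers were highest on replicate 1 and alike on replicates 2 and 3. Young knockout replicate 1, where the members were lowest, averaged 5.20 for B lymphocyte markers, inside the range of young MR-intact aorta. Its T lymphocyte average of 5.18 was the lowest of any array, against 5.30 to 5.53 on the young MR-intact arrays. The part of these cell types in the ribosomal protein values was not tested, and in bulk RNA a change in cell numbers and a change in RNA per cell cannot be told apart.

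Members differed widely in how much they varied. The range over the 13 arrays had a median of 0.63 for the members and 0.51 for all features. Rps24, a small subunit protein, had the widest range at 1.92. It read 5.33, 5.03 and 5.44 on the aged knockout arrays, 4.03, 5.03, 5.84 and 5.03 on the aged MR-intact arrays, 4.23, 5.37 and 3.92 on the young knockout arrays and 5.30, 4.75 and 4.68 on the young MR-intact arrays. Its groups overlap throughout, and its difference of 0.76 ± 0.41 for aging in knockout aorta, the largest of any member, did not pass (limma adjusted p = 0.415). Rpsa, also known as the laminin receptor, spanned 1.58, and Rpl10l 1.36. Rps24, Rpsa and Rpl10l averaged 4.92, 5.10 and 4.74 over all arrays, under the median of every array (5.85 to 5.97). The narrowest were Rpl7l1 at 0.21, Rpl18 at 0.25 and Rpl39l at 0.32. Rpl39l read 2.25 to 2.57, under the lower quartile of every array (3.89 to 4.14), so its narrow range is that of a dim signal. Within groups the median SD of the members was 0.16 in aged knockout aorta, 0.12 in aged MR-intact aorta, 0.15 in young knockout aorta and 0.098 in young MR-intact aorta, against 0.148, 0.114, 0.096 and 0.090 for all features in the same groups. The spread was thus wider for the members than for other features in each group, most of all in young knockout aorta.

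The 3 stalk proteins are Rplp0, Rplp1 and Rplp2, and differences among them were not tested. For Rplp0, the base of the stalk, the aged knockout arrays read 11.60, 11.49 and 11.42, the aged MR-intact arrays 11.39, 11.43, 11.41 and 11.34, the young knockout arrays 11.34, 11.35 and 11.37, and the young MR-intact arrays 11.31, 11.25 and 11.26. Aged arrays were above young ones in both genotypes, by 0.15 ± 0.06 in knockout and 0.12 ± 0.06 in MR-intact aorta (limma adjusted p = 0.616 in the second). Rplp2, the partner of Rplp1, differed by 0.08 ± 0.11 between the genotypes in aged aorta (limma adjusted p = 0.776). The small subunit protein Rps6, the classical substrate of S6 kinase, read 6.11, 6.09 and 6.12 on the aged knockout arrays and 6.52, 5.97, 6.36 and 6.11 on the aged MR-intact arrays, a difference of -0.13 ± 0.14 (limma adjusted p = 0.671). Rps27a, which is made as a fusion with ubiquitin, differed by 0.07 ± 0.14 (limma adjusted p = 0.836), and Rpsa by 0.15 ± 0.31 (limma adjusted p = 0.851), with a 95% interval of -0.52 to 0.83 that leaves room for large differences either way.

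Several members are paralogs of a core ribosomal protein. Rpl3l replaces Rpl3 in skeletal and cardiac muscle. It read 3.17, 3.61 and 3.19 on the aged knockout arrays, 3.34, 3.40, 3.36 and 3.29 on the aged MR-intact arrays, 3.63, 3.29 and 3.62 on the young knockout arrays and 4.41, 3.94 and 3.33 on the young MR-intact arrays. Only on young MR-intact replicate 1 was Rpl3l above the lower quartile of its array (3.93). On every other array it was dimmer than that array's own lower quartile (3.98 on young MR-intact replicate 2). Rpl3l was highest on young MR-intact replicates 1 and 2, and its difference with age in MR-intact aorta was -0.54 ± 0.20 (limma adjusted p = 0.437). Cardiac muscle markers (9 genes) averaged 8.84 and 8.56 on those same arrays and 6.21 on young MR-intact replicate 3, and skeletal muscle markers (12 genes) 8.04, 7.49 and 5.18 in that order. On the young knockout arrays the cardiac muscle markers averaged 6.32, 7.85 and 7.18 and the skeletal muscle markers 5.64, 5.55 and 7.59. Their part in the Rpl3l values was not tested. Without young MR-intact replicate 3 the difference of Rpl3l was -0.83 and passed (limma adjusted p = 0.0462), and without replicate 1 it was -0.29 (limma adjusted p = 0.848).

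Rps27l, a p53 target, and Rps27 were the only paralog pair with both genes measured. Rps27l read 9.69, 9.74 and 10.04 on the aged knockout arrays and 9.73, 9.91, 9.74 and 9.75 on the aged MR-intact arrays, a difference of 0.04 ± 0.09 (limma adjusted p = 0.872) beside the 0.31 ± 0.11 of Rps27. The change of Rps27l minus that of Rps27 was -0.27 for genotype in aged aorta and 0.29 for aging in MR-intact aorta, a description with no test. The testis paralog Rpl10l differed with age by 0.24 ± 0.28 in knockout and 0.29 ± 0.26 in MR-intact aorta, and Rpl39l by -0.04 ± 0.09 and -0.06 ± 0.09. Rpl7l1 differed by -0.02 ± 0.08 and -0.01 ± 0.07, and Rps4y2 by 0.01 ± 0.12 and -0.25 ± 0.11. Rpl22, a large subunit protein lost in some tumours, differed by 0.23 ± 0.12 in knockout and 0.10 ± 0.12 in MR-intact aorta. Outside the naming rule, Rpl36al differed by 0.26 ± 0.11 with age in knockout aorta (limma adjusted p = 0.267) and 0.12 ± 0.10 in MR-intact aorta (limma adjusted p = 0.836).

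Rpl4, Rpl13a and Rplp0 are in common use as reference genes for RT-qPCR. Their ranges over the 13 arrays were 0.54, 0.47 and 0.34, and 45.9%, 57.7% and 81.4% of all features varied more. Other usual reference genes had ranges from 0.26 for B2m and Ywhaz, over 0.31 for Actb, to 0.66 for Tfrc and 2.10 for Pgk1. All 3 ribosomal reference genes were above 0 in aging and in both genotype contrasts, with none passing in limma. Of all features 0.735% passed for aging in knockout and 0.236% for aging in MR-intact aorta. For genotype 0.0565% passed in aged and 0% in young aorta.

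The snoRNAs that lie inside these genes were also measured. By RefSeq position, 10 measured snoRNAs fall within members, and those described with their host are Snord32a, Snord33, Snord34 and Snord35a in Rpl13a, Snora21 in Rpl23, Snord16a in Rpl4, Snord15a and Snord15b in Rps3, and Snora62 in Rpsa. Snord genes are of the box C/D class, which guides 2'-O-methylation of RNA, and Snora genes of the box H/ACA class, which guides pseudouridylation. In aged aorta all 10 were higher in knockout than in MR-intact (median 0.89, from 0.31 to 1.31), 9 of the 10 without overlap between arrays (5.25% of all features were higher without overlap), and 2 passed the test (0.0565% of all features did). Snord34 read 6.84, 7.69 and 7.27 on the aged knockout arrays, against 5.78, 6.03, 5.75 and 6.24 on the aged MR-intact arrays, and rose by 1.31 ± 0.18 (limma adjusted p = 0.0212). Snord35a read 8.66, 9.12 and 8.85 on the aged knockout arrays, against 8.01, 7.98, 7.98 and 7.95 on the aged MR-intact arrays, and rose by 0.89 ± 0.13 (limma adjusted p = 0.0321). Their host Rpl13a read 11.33, 11.33 and 11.02 on the aged knockout arrays and 11.03, 11.14, 11.03 and 10.87 on the aged MR-intact arrays, a difference of 0.21 ± 0.09 with overlap (limma adjusted p = 0.245).

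**Figure D4:**
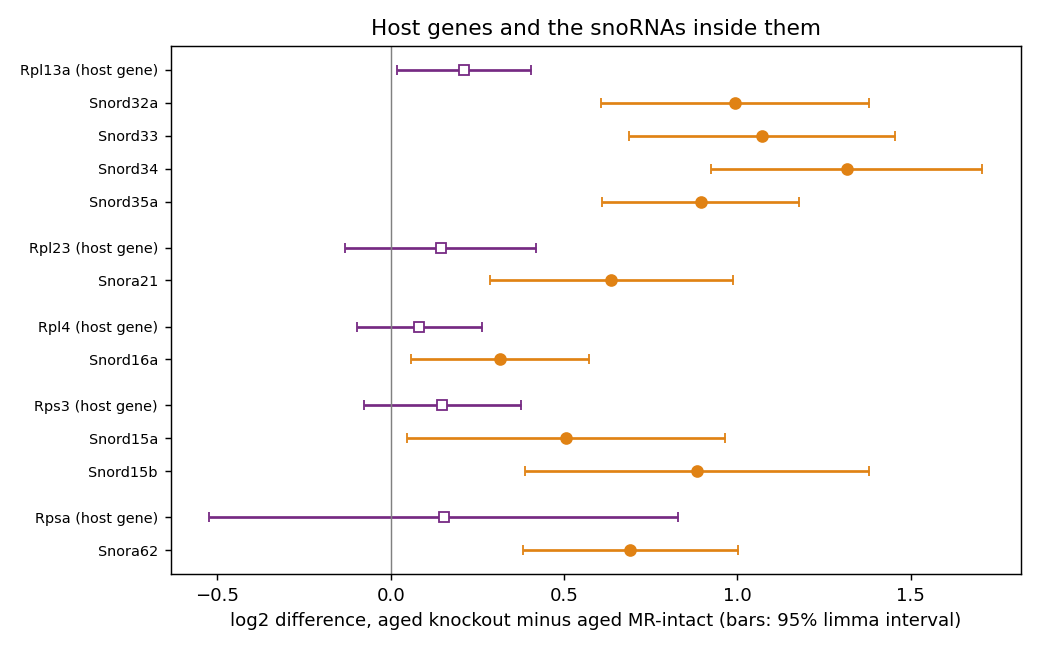
Log2 difference between aged knockout and aged MR-intact aorta (x axis, aged knockout minus aged MR-intact, bars are 95% intervals from limma) for 5 ribosomal protein genes (open squares) and the 9 snoRNAs inside them (filled circles). Host genes lie between 0.08 and 0.21 and the snoRNAs between 0.31 and 1.31.

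The other hosts also differed by less than their snoRNAs, a comparison of values that was not tested. Rps3 differed by 0.15 ± 0.10 and its Snord15b by 0.88 ± 0.23 (limma adjusted p = 0.0903), and Rpl23 by 0.14 ± 0.13 and its Snora21 by 0.64 ± 0.16 (adjusted p = 0.0865). Rpl4 differed by 0.08 ± 0.08 and its Snord16a by 0.31 ± 0.12 (adjusted p = 0.191). With age the snoRNAs had medians on opposite sides of 0 in the genotypes. The median was 0.52 in knockout aorta, where all 10 were above 0 and 3 separated the ages upward (8.0% of all features did), and -0.25 in MR-intact aorta, where 8 were below 0 and 7 separated downward (4.80% of all features did). None of those passed in limma (0.735% of all features did in knockout and 0.236% in MR-intact aorta). At an unadjusted p under 0.05, 8 were higher with age in knockout aorta (9.07% of all features) and 2 lower in MR-intact aorta (4.14% of all features). In young aorta the genotypes differed by a median of 0.13. Array by array, the 10 snoRNAs deviated from their means by a median of 0.22, 0.93 and 0.41 on the aged knockout arrays, -0.23 to -0.35 on the aged MR-intact arrays, -0.17, -0.10 and 0.25 on the young knockout arrays and -0.08 to -0.14 on the young MR-intact arrays. Aged knockout replicate 2 was the highest. Without aged knockout replicates 1 and 2, which leaves 1 array in that group, their median was 0.68, and the difference was 1.32 for Snord34 and 0.86 for Snord35a. Both calls were lost without aged MR-intact replicate 1 (limma adjusted p = 0.0893 for Snord34 and 0.0993 for Snord35a) or replicate 3 (0.101 and 0.135 in that order). Snord35a alone lost its call without aged knockout replicate 2 (0.0626) or aged MR-intact replicate 4 (0.0940).

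The snoRNAs elsewhere in the genome, a list added after these values were seen, leaned the same way. Of 38 measured, 36 were above 0 for knockout against MR-intact in aged aorta (56.4% of all features), with a median of 0.52. Of them 13 separated the genotypes upward (5.25% of all features), 29 were higher at an unadjusted p under 0.05 (8.58% of all features) and 1 was called in limma (0.0565% of all features). Their median was 0.36 for aging in knockout aorta and -0.17 for aging in MR-intact aorta. On the arrays their median deviation was -0.05, 0.81 and 0.23 in aged knockout aorta and -0.33 to -0.11 in aged MR-intact aorta. The difference between the snoRNAs of ribosomal protein genes and the others was not tested.

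The wider translation machinery was described from lists of genes. Of 21 TOP and translation partners outside the naming rule, the median for aging in knockout aorta was 0.14, with 17 above 0 (51.2% of all features), 6 higher at an unadjusted p under 0.05 (9.07% of all features) and 1 called (0.735% of all features). That gene was Cct4, a subunit of the TRiC chaperonin that folds actin and tubulin, which read 8.64, 8.60 and 8.65 on the aged knockout arrays and 8.05, 8.30 and 8.30 on the young knockout arrays and rose by 0.41 ± 0.09 (limma adjusted p = 0.0489). The call did not hold with array centring, with array weights, with the rounded table, in a fit on the 2 groups alone, or without any one array of the contrast other than aged knockout replicate 3. Gas5, a snoRNA host with a TOP tract, differed by 0.52 ± 0.13 (limma adjusted p = 0.0956), Eef1b2, an elongation factor subunit, by 0.29 ± 0.08 (0.103), and Gnb2l1, the ribosomal scaffold RACK1, by 0.34 ± 0.09 (0.114). In aged aorta, knockout against MR-intact, 13 of the 21 were above 0 (56.4% of all features) and none passed in limma (0.0565% of all features did). At an unadjusted p under 0.05, 3 were higher (8.58% of all features) and 1 lower (9.06% of all features).

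Ribosome biogenesis genes leaned like the ribosomal proteins. Of 40 genes, 36 were above 0 for aging in knockout aorta (median 0.13), against 51.2% of all features. For knockout against MR-intact in aged aorta 33 were above 0 (median 0.09), against 56.4% of all features. None passed in limma (0.735% and 0.0565% of all features did). At an unadjusted p under 0.05, 13 and 6 were higher in that order, against 9.07% and 8.58% of all features. With age in knockout aorta 13 of the 40 genes were higher without overlap between arrays (8.0% of all features). Among them were the nucleolar proteins Nop58 (0.41 ± 0.11, limma adjusted p = 0.114), Gar1 (0.30 ± 0.09, 0.135) and Nop2 (0.28 ± 0.09, 0.158). Nop58 is a core protein of box C/D and Gar1 of box H/ACA snoRNA particles. In aged aorta Nop2 differed by 0.27 ± 0.08 between knockout and MR-intact (limma adjusted p = 0.123) and Nop56, a partner of Nop58, by 0.27 ± 0.09 (0.152). The biogenesis genes' median for aging in MR-intact aorta was 0.02.

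Initiation factors (26 genes) had a median of 0.08 for aging in knockout aorta, with 19 above 0 (51.2% of all features). Their median was 0.003 for knockout against MR-intact in aged aorta, where centring each array on its median turned the sign to -0.04. None of them passed in limma in either contrast (0.735% and 0.0565% of all features did). At an unadjusted p under 0.05, 5 were higher in the first contrast (9.07% of all features) and 1 in the second (8.58% of all features). The helicase Eif4a2 differed by 0.41 ± 0.12 with age in knockout aorta (limma adjusted p = 0.121) and Eif3c by 0.22 ± 0.06 (0.119). The mTORC1 list (15 genes) had a median of 0.03 for aging in knockout aorta and -0.02 with arrays centred. None passed in limma (0.735% of all features did), and 1 was higher at an unadjusted p under 0.05 (9.07% of all features). Myc, the transcription factor that drives ribosome synthesis, read 7.24, 6.86 and 6.26 on the aged knockout arrays, 6.30, 6.37, 6.48 and 6.22 on the aged MR-intact arrays and 6.13, 6.49 and 6.37 on the young knockout arrays. Its difference with age in knockout aorta was 0.46 ± 0.19 (limma adjusted p = 0.258). Myc was named after its values were seen, and its part in the ribosomal protein values was not tested.

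Mitochondrial ribosomal proteins, encoded by nuclear genes, were also described. Their 74 genes had a median of 0.18 for aging in knockout aorta, with 65 above 0, 24 separated upward (8.0% of all features) and 27 higher at an unadjusted p under 0.05 (9.07% of all features), and none passed in limma (0.735% of all features). Mrps18c was nearest, at 0.50 ± 0.11 (limma adjusted p = 0.0547), then Mrpl32 at 0.44 ± 0.10 (0.0628), Mrpl47 at 0.67 ± 0.16 (0.0872) and Mrps22 at 0.56 ± 0.14 (0.0944). In young aorta their median was -0.10, with 65 of 74 below 0 and 22 separated downward in the knockout (4.06% of all features). Of all features 54.6% were above 0 there. The difference of aging between genotypes had a median of 0.21, with 70 of 74 above 0 (51.2% of all features). For it 0 were called in limma (0% of all features), and 11 were higher at an unadjusted p under 0.05 (3.59% of all features). Their median deviation was -0.07, 0.14 and 0.21 on the aged knockout arrays, against 0.15, 0.14 and 0.02 for the cytosolic ribosomal proteins. Within aged knockout aorta the cytosolic genes were thus higher on replicates 1 and 2, and the mitochondrial ones on replicates 2 and 3.

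**Figure D5:**
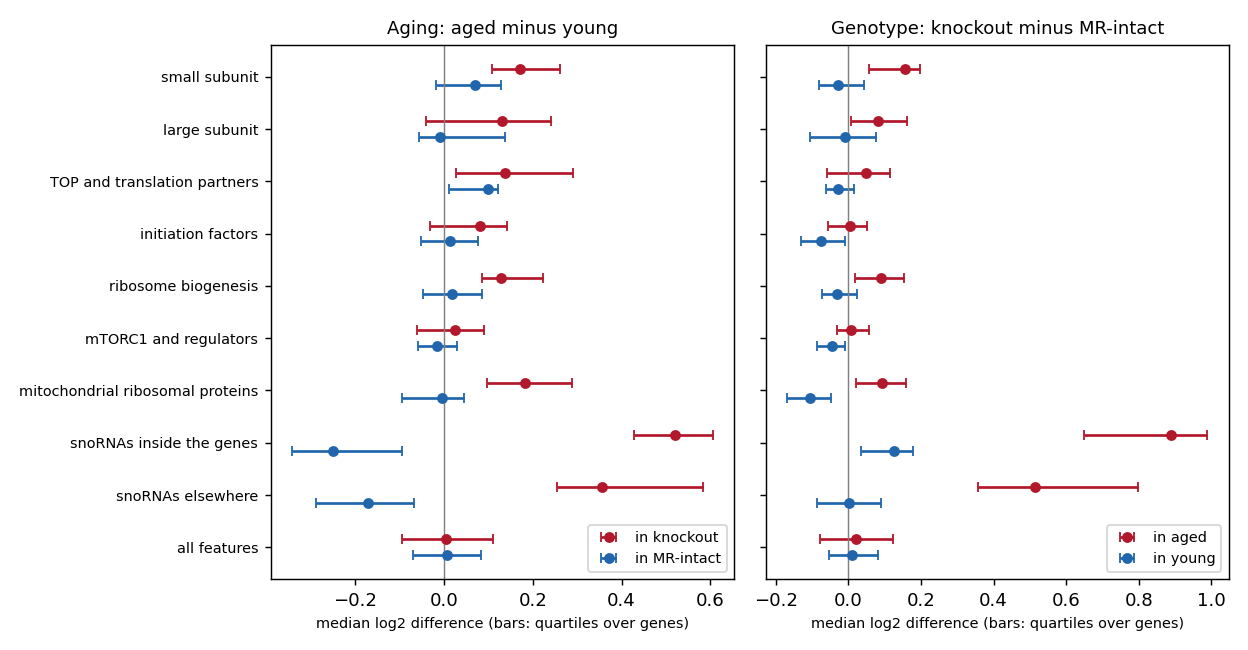
Median log2 difference of each gene list with quartiles over its genes as bars (x axes) for aging (left panel, aged minus young in knockout and in MR-intact aorta) and genotype (right panel, knockout minus MR-intact in aged and in young aorta). The snoRNAs stand farthest from 0 in aged knockout aorta, with medians of 0.89 and 0.52 in the right panel, and mitochondrial ribosomal proteins are below 0 in young aorta.

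The genes whose profile came nearest to the members' median profile were found by root mean square distance over the 13 arrays, after taking each gene's own mean away. Among features outside the rule the nearest 10 were Myg1, Ints13, Crygs, Lsg1, Mettl6, Snrpd3, Efcab1, Dhx9, Efcab10 and Arpc1a, with distances of 0.040 to 0.052, while a gene that did not vary would lie at 0.086. A total of 585 features lay closer than that, since the members' profile itself spans only 0.33. Of the members, Rplp0 (0.053), Rpl8 (0.059), Rps3 (0.075), Rps2 (0.076) and Rpl4 (0.076) were near it, and Rps24 (0.54), Rpsa (0.42) and Rpl3l (0.37) farthest.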

How the data were processed

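Aortic RNA was labelled with biotin and hybridised to 13 arrays. The authors deposited log2 expression values, 1 per Entrez gene and array; per the submitters' processing notes RMA, affy and limma were used, with no versions. RMA subtracts background, equalises the arrays' distributions and summarises probes, so a shift shared by most genes of an array is removed beforehand. Neither the chip definition nor the genome build is stated. The values carry no counts and no detection call, so the number of arrays limits precision. A second deposited table holds the same log2 values rounded, with a largest difference of 0.005. For 11 columns headed by numbers the unit was entered as other, since the header reads as a value, and those deposited columns are the same log2 scale.

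Groups came from the genotype (labelled wildtype or MR-knockout) and stage labels. One limma 3.58.1 model (R 4.3.3) with a mean for each group was fitted to all 21225 features, with 9 residual and 3.41 prior degrees of freedom, and 5 contrasts were tested with Benjamini-Hochberg adjustment over all features. Intervals are 95% limma intervals. The contrasts share arrays. "Separated" means that the arrays of the 2 groups do not overlap. The limma step was tested on simulated data. Symbols of 20768 features matched RefSeq (GRCm38.p6). A snoRNA was placed in a member by its span alone, since the gene table gives no strand.

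The members and lists were chosen with earlier results of these data known. Named were members that were called with separated arrays, otherwise the 5 smallest p-values of a contrast, the paralogs, stalk proteins and a few set genes, the widest and narrowest ranges, and up to 4 genes of each other list by smallest p. Myc, Nop56 and genes outside this rule were named after their values were seen. Alternatives were array centring, a second quantile normalization, array weights, limma-trend, a filter on dim features, only the groups of the contrast, the rounded table, each array left out, and aged knockout replicates 1 and 2 left out together. A few members count in the totals and are not reported here by name.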

Additional observations from a re-analysis of the deposited data

Results flagged for a closer look

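In 57 groups of 4 arrays tested for a single distant array, 2 stood out, and chance marks about 1 group in 20. Rpl22 read 8.11 on aged MR-intact replicate 1, against 7.91 to 7.92 on the other aged MR-intact arrays. Rps27l read 9.91 on aged MR-intact replicate 2, against 9.73 to 9.75 on the others.

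A pair of snoRNAs inside ribosomal protein genes separated the ages in opposite directions in the genotypes, upward on every array in knockout and downward on every array in MR-intact aorta. The change with age in knockout minus that in MR-intact aorta was 1.31 ± 0.26 for Snord34 and 0.99 ± 0.29 for Snord35b. Neither difference passed in limma (adjusted p = 0.609 for both). B lymphocyte markers were also higher on all aged knockout arrays, and their part in these values was not tested.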

How the results depend on the processing

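The count of ribosomal protein genes called for aging in knockout aorta was 1, and 0 with array weights, with only the groups of the contrast, and without aged knockout replicates 1 and 2 (1 array left, assumed to vary like the other groups); leaving out single arrays gave 0 to 3. For aging in MR-intact aorta it was 0, and 1 with array weights (Rpl23), with 0 to 1 when single arrays were left out. For knockout in aged aorta single arrays gave 0 to 3, and for knockout in young aorta and the difference of aging 0 to 0. The members were highest on aged knockout replicates 1 and 2, so their median falls without these arrays. It was then 0.023 over the members for knockout in aged aorta and 0.031 for the difference of aging. With single arrays left out it ranged from 0.084 to 0.19 for aging in knockout, -0.004 to 0.059 for aging in MR-intact, 0.090 to 0.15 for knockout in aged, -0.050 to 0.046 for knockout in young aorta and 0.074 to 0.18 for the difference of aging. Rps27l minus Rps27 ranged from -0.025 to 0.18, 0.20 to 0.42, -0.39 to -0.19, -0.16 to 0.059 and -0.33 to -0.11 in the same order. Fewer arrays also leave fewer degrees of freedom, and the causes were otherwise not tested. Centring arrays moved the median of all features to -0.046 and that of the members to 0.10 for aging in knockout aorta. The medians near 0 changed sign, to -0.01 for aging in MR-intact with centring and 0.002 for knockout in young aorta with quantile normalization. No paired analysis was possible because the labels give no replicate number shared between groups. The titles hold other numbers, some close together across genotypes of 1 age, whose meaning is not stated, and no pairing was taken from them.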
